A study of Mus musculus with 2 samples.

Results

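The Hox genes and the cofactors and noncoding RNAs that go with them were examined in single induced macrophages (iMac), mouse cells which the series title describes as fibroblasts turned into macrophages by c-Myc alone. The 21 members, of 20034 rows in the table, were the rows with a Hox, Meis or Pbx symbol, together with Hotairm1. They comprise 11 Hox genes, the noncoding RNAs Hotairm1 and Hoxd3os1, 3 Meis genes, 4 Pbx genes and Pbxip1, which encodes a PBX-interacting protein and came in through its symbol. The labels give a cDNA library and an oligo library, both from induced macrophages of wild type genotype that were lifted off with EDTA and processed on a DNBelab C4 droplet instrument. The promoter or vector that drove Myc, the origin of the fibroblasts and the number of cultures are not given in the labels, and the starting fibroblasts were not analysed here. The barcodes of the 1 matrix carry no sample name, so the matrix was treated as 1 sample without a replicate or a control group, and no test was possible. Intervals are at the 95% level and cover counting error only.

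Hox proteins are DNA-binding transcription factors encoded in 4 clusters of genes, HoxA to HoxD, and each cluster is expressed in an order that follows the position of its genes along the chromosome and along the body axis. PBX and MEIS proteins belong to the TALE class of homeodomain proteins and bind DNA together with Hox proteins, which sharpens the choice of target sites. In blood formation, genes of the HoxA cluster and Meis1 are known for high expression in stem and progenitor cells and lower expression as myeloid cells mature. In fibroblasts, the set of Hox genes in use reflects the place in the body from which the cells came. Hotairm1 is a noncoding RNA of the HoxA cluster, first described in myeloid cells.

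The sequence that the results turn on most is Hotairm1. In GENCODE M21 its gene lies on chromosome 6 of GRCm38 (mm10), at chr6:52156902-52162119 on the plus strand, inside the HoxA cluster. Its shortest annotated transcript, Hotairm1-203, has 253 bases and 2 exons, and the last exon of 90 bases is written in capitals.
Hotairm1-203: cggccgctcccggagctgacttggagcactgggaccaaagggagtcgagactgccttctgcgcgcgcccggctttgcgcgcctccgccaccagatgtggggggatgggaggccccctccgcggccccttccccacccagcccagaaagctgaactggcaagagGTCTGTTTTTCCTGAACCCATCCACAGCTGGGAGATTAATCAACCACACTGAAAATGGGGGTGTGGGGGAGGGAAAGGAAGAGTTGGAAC
For 12 of the 21 members, RefSeq (GRCm38.p6) start sites were given with the 250 bases before them. The windows of Hoxa5 (chr6:52204588-52204837, minus strand) and Pbxip1 (chr3:89436454-89436703, plus strand) are shown as a CG-rich and a CG-poor example without an annotated exon, from a gene of low and one of high level. Every CG dinucleotide is in capitals.
Hoxa5: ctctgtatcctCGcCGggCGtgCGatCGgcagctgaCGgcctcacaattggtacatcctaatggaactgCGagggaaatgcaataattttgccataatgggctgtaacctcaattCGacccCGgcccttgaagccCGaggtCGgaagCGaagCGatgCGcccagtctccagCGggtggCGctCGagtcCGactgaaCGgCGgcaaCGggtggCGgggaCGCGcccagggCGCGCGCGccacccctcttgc
Pbxip1: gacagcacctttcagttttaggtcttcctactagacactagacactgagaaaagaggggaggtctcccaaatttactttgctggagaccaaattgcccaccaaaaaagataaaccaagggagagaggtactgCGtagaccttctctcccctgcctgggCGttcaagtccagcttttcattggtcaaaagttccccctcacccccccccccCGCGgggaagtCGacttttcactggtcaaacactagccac
The Hoxa5 window held 28 CG dinucleotides, more than 92.4% of the 32851 windows in the RefSeq table had. The Pbxip1 window held 5, against a median of 6. Their levels were 0.287 and 21.03 counts per 1000000 counts (CPM). Over the 12 windows the CG count did not sort the members by level: Pbx2, the highest member, had 27 CG dinucleotides, and Hoxa9, with 4 counts in all, had 3. The motif CACGTG, the core site bound by Myc and its partner Max and the same on both strands, was in 0 of the 12 windows of members and in 6.02% of all windows. This says only that these letters were not in these windows.

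The matrix held 6837 barcodes. Of these, 6751 passed the limits of 500 or more genes and no more than 15% of counts from mitochondrial genes, and were kept as cells. They carried 160363508 counts in all and from 1001 to 192369 counts each, with medians of 17178 counts and 3160 genes. A single count over all cells is worth 0.00624 CPM. As a check of the label, 20 of 20 macrophage markers stood at 10 CPM or more (median 280 CPM), with Csf1r at 146 CPM. Of 20 fibroblast markers 0 did, and the highest was Sparc at 2.72 CPM. Col1a1, Col1a2 and Dcn had no row. Of 10 stem and progenitor markers, which include the member Meis1, 0 reached 10 CPM. Procr was the highest of these, at 4.51 CPM, and Kit, Cd34 and Gata2 had no row. Of 10 monocyte and granulocyte precursor markers 4 reached 10 CPM, with Prtn3 highest at 96.3 CPM. So did Pf4 (253 CPM) of the erythroid and megakaryocyte markers and Ighm (66.6 CPM) of the lymphoid markers.

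Among the 21 members the Hox genes were barely counted, and most cofactors and 1 noncoding RNA were counted more often. The cofactor Meis2, at 0.0624 CPM, was an exception. A level of 1 CPM was reached by 8 of 21 members, against 54.6% of all rows in the table. A level of 10 CPM was reached by 3 of 21, against 33.2% of all rows. None of the 11 Hox genes reached 1 CPM, and their median was 0.0249 CPM beside 2.03 CPM over all rows. All 4 Pbx genes and 2 of 3 Meis genes did reach 1 CPM.

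**Figure D1:**
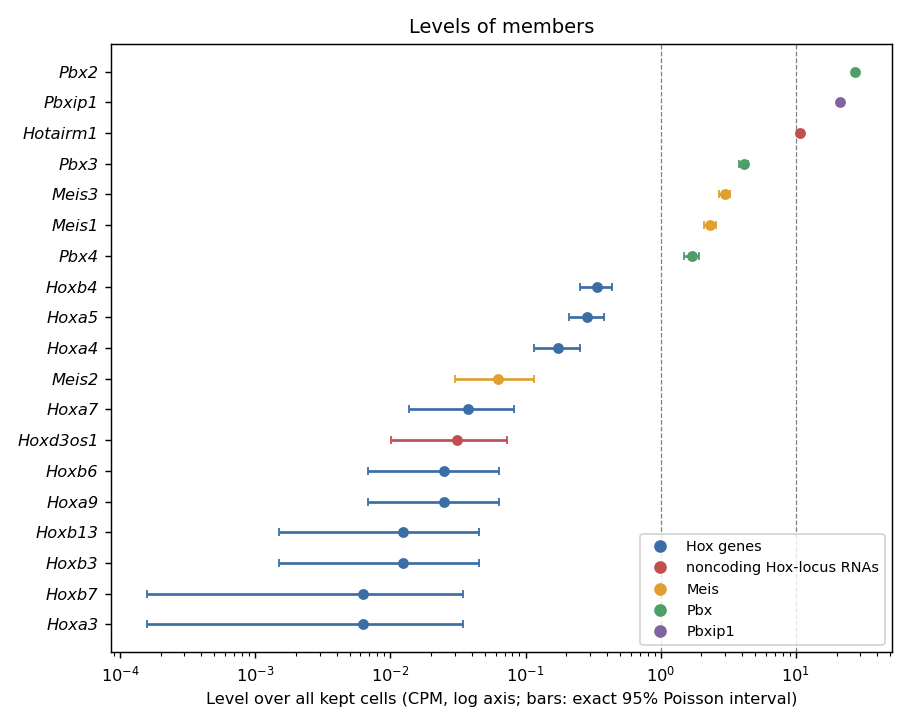
Levels of members over all kept cells, in CPM on a log axis, with exact Poisson intervals at the 95% level as bars; dashed lines mark 1 and 10 CPM. Pbx2, Pbxip1 and Hotairm1 lie above 10 CPM, and the Hox genes shown lie below 1 CPM.

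Among the cofactors, Pbx2 was highest. It had 4399 counts, or 27.4 CPM (26.6 to 28.2), in 36.4% of cells. Pbx2 encodes one of the PBX proteins and made up 75.8% of all Pbx counts. Pbx3, a PBX gene often studied beside HOXA9 in leukaemia, stood at 4.12 CPM (3.81 to 4.45) and was counted in 7.36% of cells. Pbx4, a further PBX gene, stood at 1.69 CPM (1.495 to 1.904). Pbxip1, whose product binds PBX proteins and hinders their binding to DNA with Hox proteins, stood at 21.03 CPM (20.3 to 21.8) in 29.8% of cells. Per kilobase of exons Pbx2 had 7.54 CPM per kilobase, Pbx4 0.762 and Pbx3 0.675. Pbx2 therefore led on both scales, while Pbx4 and Pbx3 changed places. Whether counts grow with exon length in these droplet data was not tested, so orders per kilobase are a second scale only.

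Meis proteins carry PBX and Hox proteins into larger complexes. Meis3 was the highest of the 3 genes, at 2.97 CPM (2.71 to 3.25) in 5.42% of cells. Meis1, the member best known from myeloid leukaemia, stood at 2.31 CPM (2.08 to 2.56) in 4.27% of cells. Meis2 had 10 counts in 10 cells, or 0.0624 CPM (0.0299 to 0.115). Per kilobase of exons Meis3 (0.937) was again above Meis1 (0.220). Pbx and Meis genes together had 30.4 times the counts of the Hox genes.

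Of the 39 mouse Hox genes, 28 had no row. These were Hoxa2, Hoxa6, Hoxa10, Hoxa11 and Hoxa13, then Hoxb1, Hoxb2, Hoxb5, Hoxb8 and Hoxb9, and all 9 genes of HoxC and all 9 of HoxD. Every row in the table has at least 1 count in some barcode, and a gene without a row is treated here as not counted, without a value. Hotair and Hottip, the noncoding RNAs of the HoxC and the far HoxA end, were not listed either. Hoxd3os1, an antisense RNA at Hoxd3, was the one listed transcript of the HoxD cluster and had 5 counts in 5 cells.

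The 11 Hox genes with a row had 219 counts in all, or 1.37 CPM (1.19 to 1.56). These counts lay in 183 cells, 2.71% of all (2.34% to 3.13%). Hoxb4, known for expanding blood stem cells when it is overexpressed, had 54 counts in 51 cells and 0.337 CPM (0.253 to 0.439). Hoxa5, which acts in lung and skeletal development and in myeloid differentiation, had 46 counts in 34 cells and 0.287 CPM (0.210 to 0.383). The intervals of these genes overlap. Hoxa4 had 28 counts in 27 cells and 0.175 CPM (0.116 to 0.252), an interval that overlaps that of Hoxa5. Between 1 and 6 counts each were found for 7 more. Hoxa7 had 6 counts, and Hoxb6 and Hoxa9 had 4 each. Hoxb3 and Hoxb13 had 2 each, those of Hoxb13 in 1 cell. Hoxa3 and Hoxb7 had 1 each. Hoxa9, the Hox gene most closely tied to myeloid progenitors, was thus counted in 3 of 6751 cells.

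By cluster of genes, 156 of the 219 Hox counts came from HoxA (71.2%, 64.7% to 77.1%) and 63 from HoxB (28.8%). By position within the cluster, 202 counts came from paralogue groups 1 to 5, the end of the cluster expressed first in the embryo (92.2%, 87.9% to 95.4%). Groups 6 to 8 gave 11 counts and groups 9 to 13 gave 6. Taken over both clusters, the counts were therefore concentrated at the low-numbered end. In HoxB this rests on Hoxb4, with 54 of the 63 counts, while Hoxb1 and Hoxb2 had no row. Within groups 1 to 5 the level did not follow gene order. Hoxa3 and Hoxb3, with 1 and 2 counts, each lay beside a gene of paralogue group 4 with more counts.

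The protein-coding genes around the clusters differed widely in level. Of the 24 nearest, 3 on each side of each cluster, 22 had a row, 19 stood at 1 CPM or more and 15 at 10 CPM or more. Among all rows, noncoding ones included, 54.6% and 33.2% did, so a larger share of the flanking genes passed. The share among protein-coding rows alone was not worked out. The genes right beside the clusters ranged from no row to 75.9 CPM. Beside HoxA, Skap2, an adaptor protein of myeloid cells, stood at 75.9 CPM at a distance of 143 kb, but the homeobox gene Evx1, 52.6 kb away on the other side, had no row. Beside HoxB, Ttll6 (28.9 kb) and Skap1 (96.3 kb) were at 0.0437 and 0.118 CPM. Beside HoxC, Calcoco1 (199 kb) and Smug1 (116 kb) were at 4.96 and 2.87 CPM. Beside HoxD, the homeobox gene Evx2 (8.75 kb) had no row and Mtx2 (60.7 kb) stood at 45.5 CPM. Among genes farther out, Atp5g1 119 kb from HoxB (634 CPM), Hnrnpa1 204 kb from HoxC (332 CPM) and Atp5g3 757 kb from HoxD (721 CPM) were high. Calcoco2, 82.4 kb from HoxB, was low (0.193 CPM).

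**Figure D2:**
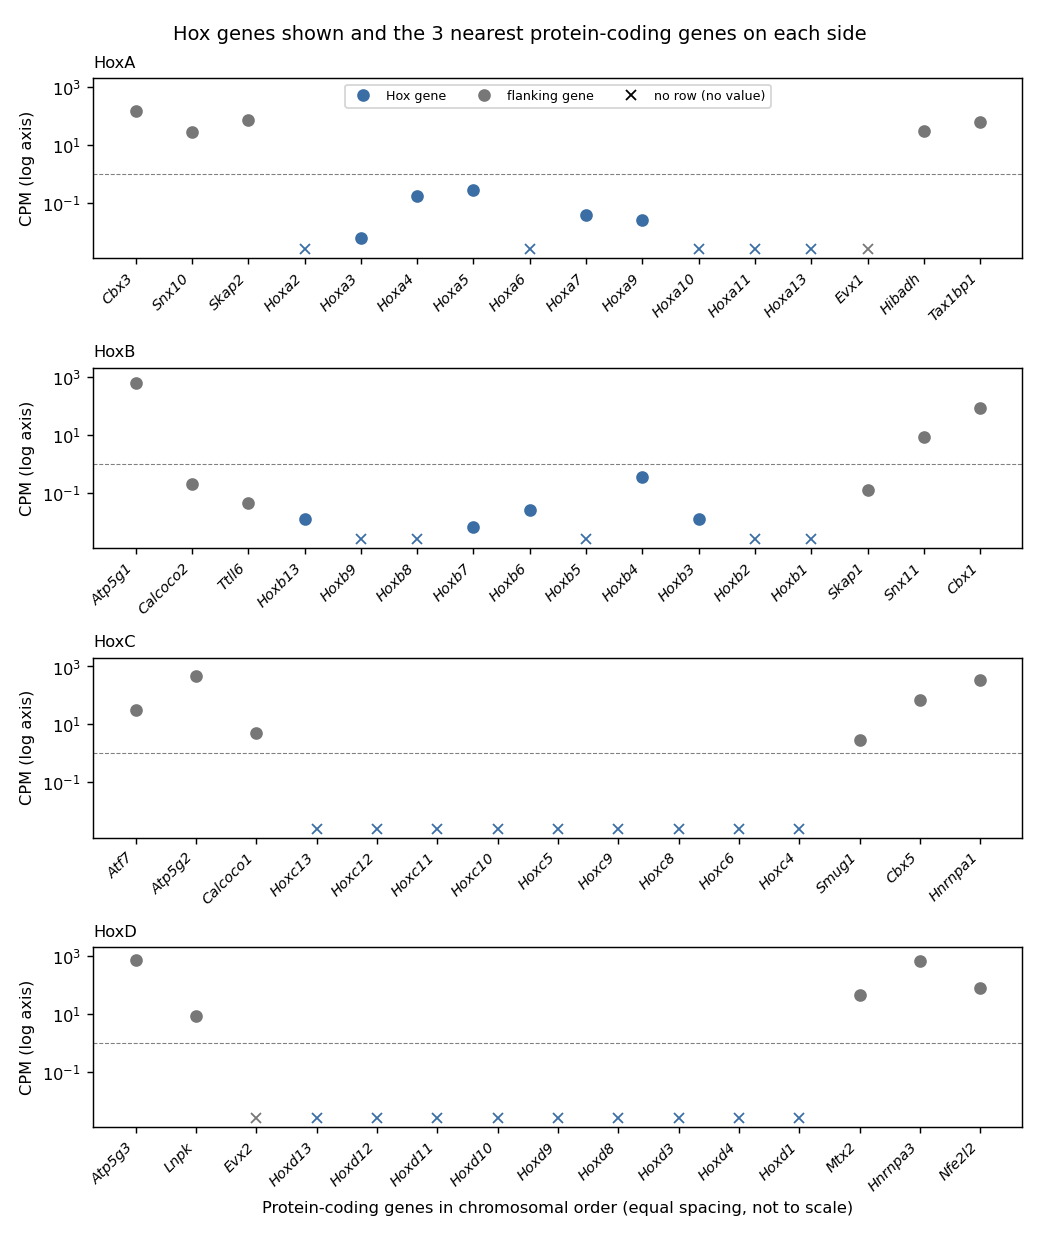
Levels in CPM on a log axis of Hox genes (blue) and the 3 nearest protein-coding genes on each side (grey), in chromosomal order at equal spacing; a cross marks a gene without a row and has no value. Hox genes of HoxA and HoxB lie below 1 CPM, HoxC and HoxD show crosses only, and most flanking genes lie above 1 CPM.

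Hotairm1 stood apart from the Hox genes around it. It had 1716 counts in 1001 cells, or 10.7 CPM (10.2 to 11.2) and 14.8% of cells (14.0% to 15.7%). That is 7.84 times the counts of all 11 Hox genes together. Per kilobase of exons it was the highest of all 21 members, at 10.4 CPM per kilobase beside 7.54 for Pbx2. Its exons are short, with 1025 bases beside 3640 for Pbx2, and this rank holds only if counts grow with exon length, which was not tested. Whether the counting kept strand is not stated, so reads of Hotairm1 from bases where another gene lies on the opposite strand cannot be told apart from reads of that gene.

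The Hotairm1 counts lay in fewer cells than those of other genes with the same level. Among 601 genes within 10% of its CPM, the median gene was counted in 18.0% of cells, and 80% of such genes lay between 16.2% and 19.8%. Hotairm1, at 14.8%, was below that range, and only 16 of the 601 (2.66%) were lower. Up to 12 counts fell in 1 cell. Pbx2 (36.4% beside a median of 35.6%) and Pbxip1 (29.8% beside 29.6%) lay close to the medians of their own peers. These shares rise with depth: Hotairm1 was counted in 3.20%, 13.5% and 27.8% of cells in the shallowest, middle and deepest of 3 equal groups of cells by depth, while its level was 9.97, 11.1 and 10.6 CPM. No cell type that lacks Hox transcripts was available in the matrix, so a background of free RNA could not be measured for these shares.

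Hoxa4 and Hoxa5 were counted in a larger share of the cells with a Hotairm1 count than of the cells without. The 1001 cells with a Hotairm1 count were deeper (median 34731 counts) than the 5750 without (median 14078). The cells without were therefore weighted to the same depths, in 10 strata of counts per cell. Hoxa4 was then counted in 1.80% of the cells with Hotairm1 and 0.235% of those without, a ratio of 7.66 (4.54 to 12.1) that rests on 18 and 9 cells. The interval of each ratio covers the counting error of the share in cells with Hotairm1, and not that of the share in cells without. Hoxa5 had a ratio of 3.33 (1.94 to 5.33), from 17 cells in each group. Both lay in the range of 0.1 to 1 CPM and passed 2-fold, which 4.87% of the 3181 rows in that range of levels did. Hoxb4, on chromosome 11, did not, with a ratio of 0.916 (0.457 to 1.64). The ratios of Hoxa4 and Hoxa5 were 7.10 and 3.61 when the strata held cluster of cells as well as depth.

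A pair of antisense rows inside the HoxA cluster, which the symbol rule does not take in, also had high ratios. Gm15050, at chr6:52172881-52174059, had 75 counts (0.468 CPM) and a ratio of 5.79 (4.12 to 7.91). Hoxaas3, which runs from Hoxa3 to Hoxa7 on the plus strand, had 50 counts (0.312 CPM) and a ratio of 4.34 (2.65 to 6.70). Hoxaas3 shares 297 exon bases with Hoxa3 and 586 with Hoxa7, so those rows are uncertain in the same way. Hoxa4 and Hoxa5 lie on the other strand within the span of Hoxaas3 and share 0 exon bases with it. If reads from introns were counted, these rows could share reads as well. Of the cofactors, Pbx2 (1) and Pbxip1 (0.996) had ratios near 1. Pbx3 (1.11) and Pbx4 (0.817) had intervals that included 1. The ratio was 1.54 (1.25 to 1.88) for Meis1 and 0.601 (0.454 to 0.781) for Meis3, on either side of 1.

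In the deepest of the 3 depth groups alone, where both groups had like depth (medians of 45411 and 44212 counts), Hoxa4 was counted in 14 of 625 cells with Hotairm1 (2.24%, 1.23% to 3.73%). It was counted in 4 of 1625 cells without (0.246%, 0.0671% to 0.629%). Gm15050 was counted in 5.28% of the former and 0.800% of the latter. The intervals of the 2 groups were apart for these transcripts and overlapped for Hoxb4 (1.44% and 1.54%). Hox counts were too sparse to say more about single cells. Of the 183 cells with a Hox count, 154 had just 1, and 7 had counts of more than 1 Hox gene.

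**Figure D3:**
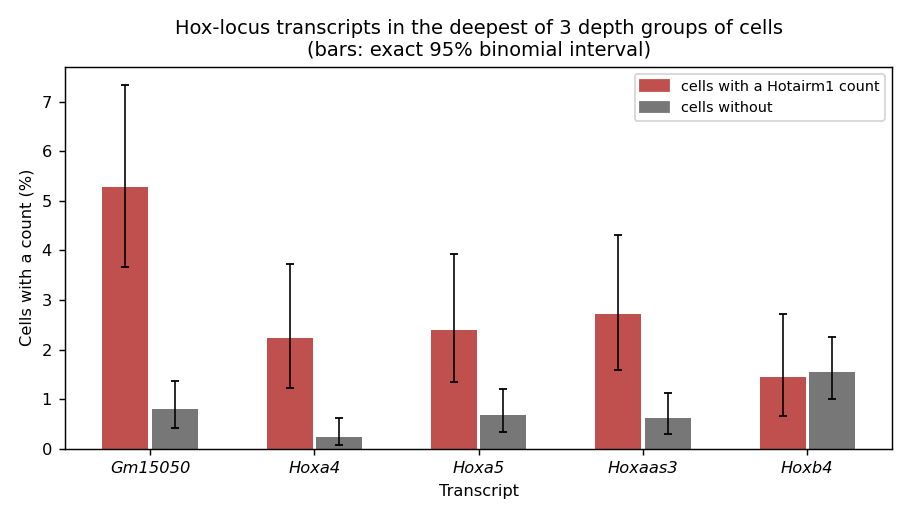
Share of cells with a count of each transcript, in percent, among the 625 cells with (red) and the 1625 cells without (grey) a Hotairm1 count in the deepest of 3 groups of cells by depth; error bars are exact binomial intervals at the 95% level. The 4 HoxA transcripts are higher in the red bars (Hoxa4 2.24% beside 0.246%), and Hoxb4 is level at 1.44% and 1.54%.

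The members varied among clusters of cells. The clustering left out all members and the genes of the lists, and gave 8 clusters numbered by size. They were described by their leading genes and given no cell type name. Cluster 8, with 226 cells and 698242 counts, was too shallow to place a member and is left out of the ranges below. The differences are descriptions, since genes that vary with the members shaped the clusters.

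Meis1 and Pbx3 were both highest in cluster 6, whose 584 cells were led by the nuclear noncoding RNAs Malat1 and Neat1. Meis1 stood there at 7.40 CPM (6.31 to 8.62) and in the other clusters at 0.829 to 1.97 CPM, a log2 ratio of 1.75 against all other cells. Pbx3 stood there at 11.6 CPM (10.2 to 13.1) and elsewhere at 2.11 to 3.42 CPM, a log2 ratio of 1.69. Pbx2 (36.6 CPM, log2 ratio 0.48) also had its highest level there but did not pass 2-fold. So 2 of 5 members of 1 to 10 CPM passed 2-fold, against 19.7% of rows in that range. With a pseudocount of 10 CPM neither did (0.60 for Meis1 and 0.74 for Pbx3). Of the 3 members of 10 CPM or more 0 did, against 9.51%. In this cluster long genes were high in general: 56% of rows of 1 to 10 CPM spanning 100 kb or more were at least 2-fold higher, and 12.8% of shorter ones. Meis1 spans 139 kb and Pbx3 202 kb, and the medians of long and shorter rows were 1.09 and 0.38 on the log2 scale. The part of gene length in the Meis1 and Pbx3 values was not tested.

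Hotairm1 was highest in cluster 4, led by the monocyte genes Ly6c2 and Ccr2 and the granule protease gene Prtn3, and lowest in cluster 2, led by the macrophage genes Ms4a7 and Folr2. Its levels were 15.5 CPM (14.1 to 17.0) and 6.99 CPM (6.06 to 8.04), a 2.22-fold span. Between them came clusters 5 (14.5 CPM), 1 (13), 7 (12.3), 6 (9.37) and 3 (8.24). Each neighbour in this order overlaps the next in its interval, while clusters 4 and 5 lie clear of clusters 6, 3 and 2. Meis3 was highest where Hotairm1 was lowest, in cluster 2, at 5.87 CPM (5.01 to 6.83), with a log2 ratio of 1.04 against other cells. Its order was not otherwise the reverse: at 2.39 CPM in cluster 4 it was not below its levels in clusters 1, 3, 5 and 7 (1.45 to 1.91 CPM). Meis3 was the 1 member of 5 at 1 to 10 CPM past 2-fold in cluster 2, where 7.09% of such rows were past it. It missed 2-fold at clustering resolution 0.3 (0.95), with no gene left out of the clustering (0.86) and with a pseudocount of 10 CPM (0.36). Of the 3 members of 10 CPM or more 0 were, against 4.69% of rows. In cluster 4 the counts were 0 of 5 and 0 of 3, against 2.73% and 1.52% of rows.

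Of the remaining members, Pbxip1 ran from 14.6 CPM in cluster 5 to 35.3 CPM in cluster 7, which was led by Camk1d. Pbx2 varied less, from 21.8 CPM in cluster 5 to 36.6 CPM in cluster 6. Pbx4 lay between 1.32 and 2.11 CPM, with overlapping intervals. The summed Hox genes stood at 1.90 CPM (1.43 to 2.48) in cluster 4 and 1.86 CPM (1.40 to 2.44) in cluster 2, with overlapping intervals, where Hotairm1 was highest and lowest. They were lowest in cluster 5, at 0.484 CPM (0.209 to 0.953), where Hotairm1 was high. Cluster 5 was led by replication-dependent histone genes and had 8 Hox counts.

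**Figure D4:**
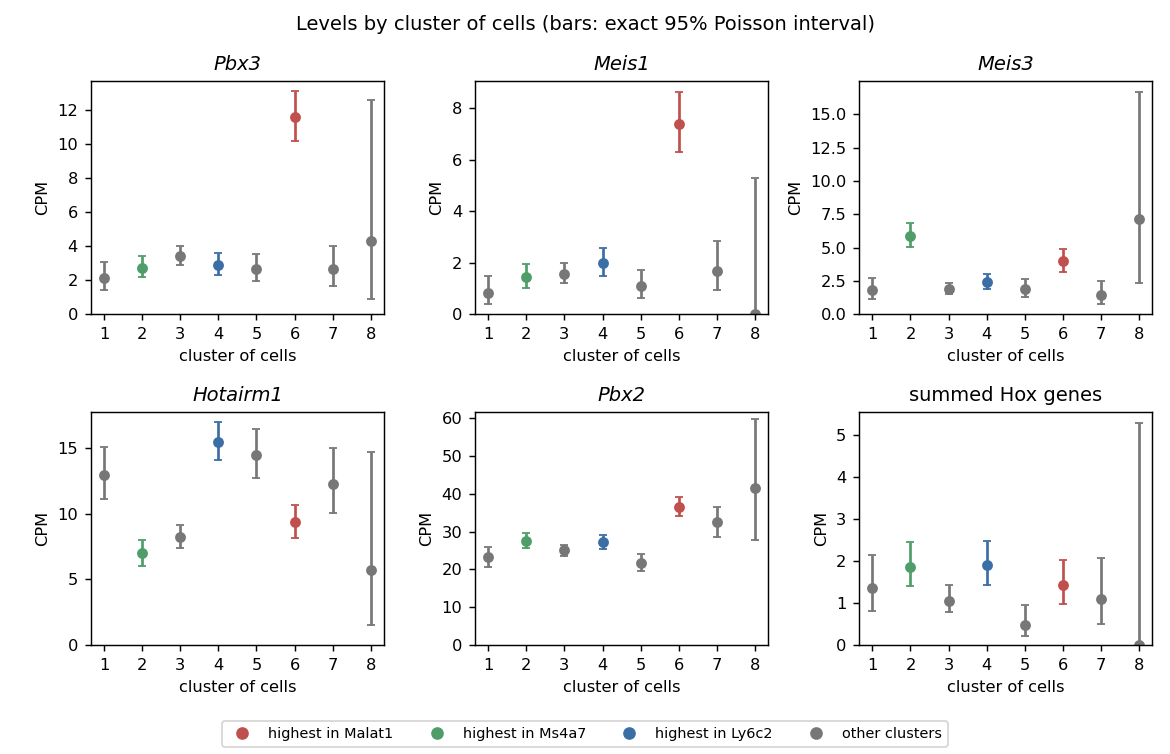
Levels in CPM of 5 members and of the summed Hox genes in each of the 8 clusters of cells, with exact Poisson intervals at the 95% level; colours mark the clusters highest in Malat1 (red), Ms4a7 (green) and Ly6c2 (blue). Pbx3 and Meis1 peak in cluster 6 (11.6 and 7.40 CPM), Meis3 in cluster 2 (5.87 CPM) among clusters 1 to 7, and Hotairm1 in cluster 4 (15.5 CPM).

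Other genes of the same system were taken from lists. The MLL, menin and DOT1L list holds the histone methylation machinery known for keeping Hox genes active. All 20 of its genes had a row, 20 reached 1 CPM and 16 reached 10 CPM, with a median of 16.2 CPM. Dpy30 (137 CPM), Ash2l (48.9 CPM) and Psip1 (44.5 CPM) were highest. Kmt2a, the MLL gene itself, stood at 13.7 CPM, Men1 at 11.7 CPM and Dot1l at 26.4 CPM. The Polycomb list holds the complexes known for keeping Hox genes silent, together with H3K27 demethylases. All 25 of its genes had a row, 23 reached 1 CPM and 10 reached 10 CPM, with a median of 8.66 CPM. The methyltransferase Ezh2 stood at 33.2 CPM and its partners Suz12 and Eed at 38.4 and 31.2 CPM. Jarid2, an accessory subunit, was listed at 600 CPM and was among the leading genes of cluster 7 together with Gm42418, a row at a ribosomal RNA locus. Rbbp4 (136 CPM) and Rbbp7 (112 CPM) were the next highest of the list. Among all rows 54.6% reached 1 CPM and 33.2% reached 10 CPM, so the Polycomb count at 10 CPM lay near the share of all rows. The medians of both lists lay above the 2.03 CPM of all rows and the 0.0249 CPM of the Hox genes.

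Of the 11 TALE homeobox genes outside the Meis and Pbx families, 8 had a row, 3 reached 1 CPM and 2 reached 10 CPM. These were Tgif1, a repressor in TGF-beta signalling, at 15.4 CPM, and Pknox1, a further partner of PBX proteins, at 12 CPM. Pknox1 was lowest in cluster 2, at 7.35 CPM (6.38 to 8.41), where Meis3 was highest. This interval overlapped those of cluster 1 (6.2 to 9.25) and cluster 4 (7.99 to 10.2). In cluster 1 Meis3 stood at 1.81 CPM, so the 2 genes were not opposed there. Of 61 homeobox genes outside the Hox clusters, 34 had a row, 16 reached 1 CPM and 7 reached 10 CPM. Zeb2, a macrophage identity factor, stood at 102 CPM, Cux1 at 40.5 CPM, Pou2f2 at 38.2 CPM and Hhex at 28.1 CPM. Over all rows of the table, 54.6% reached 1 CPM and 33.2% reached 10 CPM, so these homeobox genes did not stand above the rest. The ParaHox genes, which include the Cdx genes that act above Hox genes in the embryo, had 1 row of 6, Pdx1, with 1 count.

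Genes of position and limb identity in fibroblasts were nearly absent from the counts. Of 12 such genes 5 had a row, 0 reached 1 CPM, and the highest was Twist2 at 0.0561 CPM. Of 12 genes associated with HOXA9 and MEIS1 in myeloid cells, 10 had a row and 3 reached 10 CPM: Lmo2 (124 CPM), Mef2c (124 CPM) and Id2 (29.0 CPM). That is close to the 33.2% of all rows at that level. The progenitor genes Flt3 and Myb of that list were low, at 0.137 and 0.125 CPM, while Sox4 (7.91 CPM) and Bcl2 (3.99 CPM) were higher. Mef2c stood at 166 CPM in cluster 6, a log2 ratio of 0.51 against other cells, which does not pass 2-fold.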

How the data were processed

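Induced macrophages were measured by droplet RNA sequencing, and 1 matrix was used. It holds raw counts as whole numbers, which the authors deposited and PISA 0.12 wrote, per the file headers. Per the submitters' processing notes, Cell Ranger and mm10 also had a part, with no role stated. Not given in the sources used here were the aligner, annotation, strand setting, cell calling and whether counts are of unique molecules. If counts are of reads, intervals are too narrow.

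Barcodes of 500 or more genes and no more than 15% mitochondrial counts were kept, and doublets were left in. Levels are summed counts per 1000000 counts (CPM) with exact Poisson intervals. Shares have exact Clopper-Pearson intervals. Of 20034 symbols, 19659 matched GENCODE M21, which gave coordinates and exon lengths. Clusters came from scanpy 1.11.5 and igraph 0.11.9 (Leiden, resolution 0.5) without members and list genes. Log2 ratios used a pseudocount of 1 CPM. Ratios of shares between cells with and without a Hotairm1 count were standardised over 10 strata of depth, and their interval is that of the share in cells with a count. The steps were tested on simulated data.

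The members and lists were chosen with earlier results of these data known. Some members are not reported here by name. The counts over all members and the sums include every row. Of each list, apart from the cell type markers, the highest genes and those explained as background are named. The comparison of cells by Hotairm1, the antisense rows Gm15050 and Hoxaas3, and genes in the closing part were chosen after values had been seen.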

Additional observations from a re-analysis of the deposited data

How the results depend on the processing

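Each result was recomputed with 1 choice changed, giving 93 values. Of these, 67 stayed within the main interval (counts: within 1.5 times) and 26 moved beyond it. Direction was checked for the log2 ratios between clusters only, and none of those turned. The Hoxb4 ratio by Hotairm1 crossed 1, from 0.916 to 1.29, without the deepest 10% of cells, and stayed within its interval. With ribosomal protein, mitochondrial and ribosomal RNA locus counts left out of the denominator, Hotairm1 stood at 17.2 CPM, Pbx2 at 44.1 CPM and the summed Hox genes at 2.20 CPM, and 11 homeobox genes outside the clusters reached 10 CPM. Without the deepest 10% of cells, Hotairm1 stood at 11.4 CPM, in 13% of cells, and a Hox count lay in 2.22% of cells. Hotairm1 was in 17.0% of cells under the stricter filter (at least 1000 genes, at most 5% mitochondrial counts) and in 1.82% of cells thinned to 1900 counts. At 50 CPM 0 members passed, and per kilobase Hotairm1 ranked 1 among the members instead of 3. At resolution 1.0, log2 ratios were 2.22 for Meis1 and 2.10 for Pbx3 in the Malat1 cluster, 1.31 for Meis3 and -0.94 for Hotairm1 in the Ms4a7 cluster, and 0.92 for Hotairm1 in the Ly6c2 cluster. With a pseudocount of 10 CPM these were 0.60, 0.74, 0.36, -0.34 and 0.37, so that none passed 2-fold. With 0.1 CPM, Meis1, Pbx3 and Meis3 had 2.24, 1.96 and 1.28. Hotairm1 in the Ly6c2 cluster had 0.76 at resolution 0.3 and 0.88 with no gene left out of the clustering. In the latter setting and at resolution 0.3, Meis3 fell below 2-fold, at 0.86 and 0.95. Apart from denominators, thinning and pseudocounts, which change values by construction, the cause was not tested. The ratios of the HoxA transcripts by Hotairm1 stayed within their intervals under 4 alternatives chosen after seeing the data.

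No paired analysis was possible because the matrix was treated as 1 sample. Depth limits the Hox genes most: with 219 counts over all 11, their differences between clusters were mostly not detectable, and a Hox gene not counted in a cell may still be expressed there.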

Other observations

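Among rows of 1 CPM or more, 28 of 10941 were counted at least 1.5 times as often in cells with a Hotairm1 count. The comparison was with cells without a Hotairm1 count at equal depth. A gene counted in a large share of the cells without cannot reach that ratio, so this number does not measure how alike the cells were. The highest ratios were those of B630019K06Rik (2.10), Ltb, a cytokine of the TNF family (2.03), Nfe2, a transcription factor of blood cells (1.98), and Mn1, a transcriptional coregulator tied to myeloid leukaemia (1.90). Tspan32 (1.88), Ifitm1 (1.86) and Ctsg, which encodes the granule protease cathepsin G (1.83), followed. Ctsg was counted in 16.1% of the cells with Hotairm1 and 8.78% of those without at equal depth. At the other end 59 rows were counted at most as often as 1 divided by 1.5, led by Gdf3, a growth factor of the TGF-beta family (0.263), Flrt2 (0.284), Tmeff1 (0.36), Evc2 (0.378) and Npr1 (0.403). These genes were picked from the whole table for their ratios, which are given as a description.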
